A study of Mus musculus with 8 samples.

Results

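Retinoic acid is made inside cells from vitamin A and acts on genes through nuclear receptors. Retinol is first oxidised to retinaldehyde, and the retinaldehyde dehydrogenases ALDH1A1, ALDH1A2 and ALDH1A3 turn that into retinoic acid. The binding protein CRABP2 carries retinoic acid to its receptors RARα, RARβ and RARγ, which bind DNA as partners of the RXR receptors, and the enzymes CYP26A1 and CYP26B1 break it down. In the rodent uterus this balance is known to differ between epithelium and stroma and to be under hormonal control. The 9 genes described here encode these proteins: Aldh1a1, Aldh1a2 and Aldh1a3 for synthesis, Cyp26a1 and Cyp26b1 for breakdown, Crabp2 for binding, and the receptors Rara, Rarb and Rarg. They were taken by symbol from count tables that list 23420 genes, and all 9 were listed.

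Polyadenylated RNA of mouse uterine stromal cells was sequenced in 8 libraries, all labelled day 3. Of these, 4 carried the label Erbb3f/f, which in common mouse notation is an Erbb3 allele flanked by loxP sites, and 4 the label Erbb3d/d, the notation for that allele after deletion by Cre. Erbb3 encodes a cell surface receptor for neuregulins. The labels name no Cre line, strain, age or count of animals per library, no treatment, and not the event from which day 3 is counted. They also do not say whether replicates came from separate animals, so the p-values measure only the spread between these samples.

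Between 8578575 and 12854367 reads per library were assigned to genes (single reads or pairs, which the sources used here do not state). Erbb3 had 7.40, 10.6, 8.25 and 12.3 CPM (the read count normalised to the library total, with totals scaled by edgeR's TMM method) in Erbb3f/f replicates 1 to 4. It had 7.37, 14.3, 17.7 and 16.2 CPM in Erbb3d/d replicates 1 to 4, so it was not lower under the Erbb3d/d label, and all comparisons rest on the labels. Whole-gene counts cannot tell a deleted exon from a kept one. All 13 stromal markers examined were detected, with a summed level of 13870.3 to 17272 CPM in the libraries labelled Erbb3f/f and 11724 to 15905 CPM in those labelled Erbb3d/d. Markers of other cells were present too. Epithelial markers summed to 1032 to 1694 CPM in Erbb3f/f and 1569 to 2649 CPM in Erbb3d/d, and smooth muscle markers to 884 to 1788 CPM and 1728 to 4119 CPM. In such bulk samples, fewer cells of a type and less RNA per cell cannot be told apart.

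The libraries were compared by label, Erbb3d/d against Erbb3f/f. In these libraries Aldh1a3 was 7.82-fold, Aldh1a1 1.78-fold and Cyp26b1 1.62-fold higher by the means under the Erbb3d/d label, and for each of the 3 genes every Erbb3d/d library lay above every Erbb3f/f library. Aldh1a2, the synthesis gene with the highest level per kilobase, and the 3 receptors overlapped between the labels, with ratios of means from 0.911 to 1.11. None of the 9 genes passed the threshold of 0.05 on the adjusted p (edgeR quasi-likelihood, 14598 genes tested), and 0% of all genes did. At an unadjusted p under 0.05, 3 of the 9 genes passed, all higher in Erbb3d/d, against 11.6% of all genes tested in either direction and 6.64% higher. The values of 3 of the 9 did not overlap and were higher in Erbb3d/d, against 5.04% of all genes in either direction and 2.56% higher. The log2 fold change was above 0 for 8 of the 9, against 48.0% of all genes. The median log2 fold change was 0.66 over the 9 genes and -0.01 over all genes tested. The 9 genes and the lists below were chosen with earlier results of these data known, so these shares describe and do not test. The counts are also not independent, since Erbb3d/d replicate 3 was the highest of its genotype for 7 of the 9. Among the genes above 0, Aldh1a2, Cyp26a1, Crabp2 and Rara each turned sign in an alternative analysis that left out libraries.

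**Figure D1:**
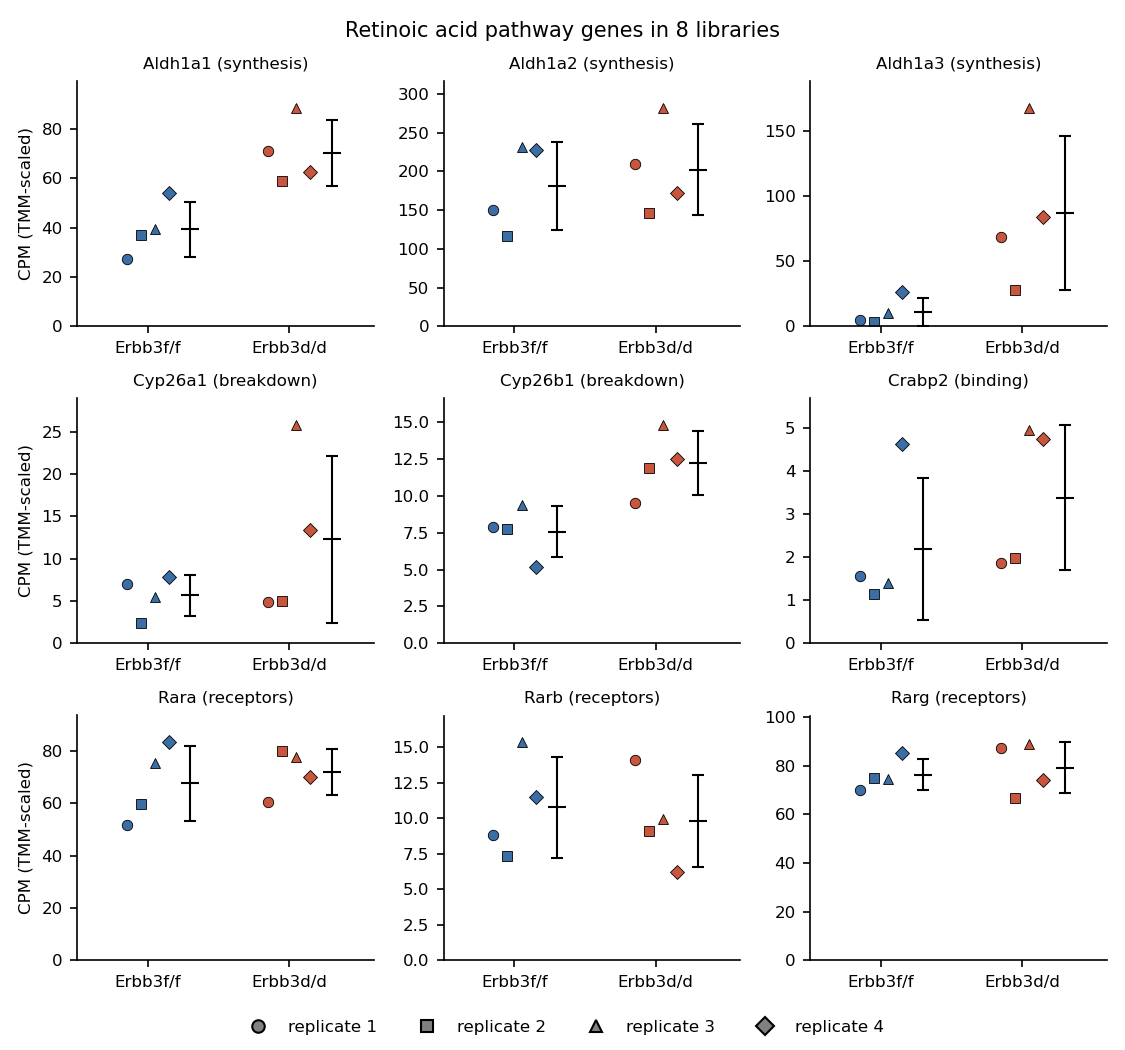
Normalised read counts (CPM, TMM-scaled, linear axes from 0) of the 9 genes in each library, with symbols for replicates and the mean ± SD (n = 4) beside each genotype. The Erbb3d/d libraries lie wholly above the Erbb3f/f libraries for Aldh1a1, Aldh1a3 and Cyp26b1, and Erbb3d/d replicate 3 is the highest of its genotype for 7 of the 9 genes.

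Aldh1a3, an enzyme of retinoic acid synthesis, showed the widest difference. The gene spans bases 66390890 to 66427517 of chromosome 7, minus strand, in GENCODE vM21 (GRCm38), which is used for all genes here. Its normalised read count was 4.97, 3.04, 10.1 and 26.5 CPM in Erbb3f/f replicates 1 to 4, which rests on 51, 29, 128 and 234 reads. The Erbb3d/d libraries had 68.6, 28.0, 168 and 83.9 CPM in the same order, resting on 698, 240, 2130 and 956 reads. No library of one label fell among those of the other, but Erbb3d/d replicate 2 lay just above Erbb3f/f replicate 4. The spread within each genotype was wide, 8.71-fold from lowest to highest in Erbb3f/f and 6.00-fold in Erbb3d/d. Means were 11.1 ± 10.6 and 87.1 ± 58.8 CPM (SD, n = 4 each). On the log2 scale Aldh1a3 differed by 2.99 (SE 0.72, edgeR adjusted p = 0.255). An exact two-sided permutation test, in which 8 libraries can be divided in 70 ways, gave p = 0.0286, the smallest it can give. It gives this value wherever the groups do not overlap, which held for 5.04% of all genes tested. DESeq2 called the gene (adjusted p = 0.0194, against 0.0194 to 0.999 over all 16 alternatives tried), in a test that called 1.80% of all genes and 2 of the 9. With the replicate number as a block, edgeR called Aldh1a3 alone of the 9, where 0.356% of all genes were called.

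Aldh1a1, another enzyme of synthesis, lies on chromosome 19 (plus strand, bases 20492715 to 20643465). It had 27.1, 37.0, 39.4 and 53.9 CPM in Erbb3f/f replicates 1 to 4 and 71.0, 58.8, 88.5 and 62.3 CPM in Erbb3d/d replicates 1 to 4. The groups did not overlap, and the distance between the nearest libraries, Erbb3f/f replicate 4 and Erbb3d/d replicate 2, was small beside the spread within a genotype. The mean was 39.4 ± 11.1 CPM and 70.1 ± 13.3 CPM (SD, n = 4 each). In the fit it differed by a log2 fold change of 0.84 (SE 0.20, edgeR adjusted p = 0.240). The exact permutation test gave p = 0.0286, as it must without overlap. DESeq2 called this gene too (adjusted p = 0.0119, against 0.0119 to 0.903 over the alternatives). Mouse Aldh1a1 has a close relative, Aldh1a7, with which reads could be mixed. Aldh1a7 had 9 to 22 reads per library where Aldh1a1 had 278 to 1123, and Aldh1a7 values overlapped between the genotypes.

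Aldh1a2, the enzyme that makes most retinoic acid in the early embryo, lies on chromosome 9 (plus strand, bases 71215789 to 71296243). Its normalised read count was 150.2, 116, 231 and 227 CPM in Erbb3f/f replicates 1 to 4 and 209, 146, 282 and 172 CPM in Erbb3d/d replicates 1 to 4. The groups overlapped over most of their range. Its log2 fold change was 0.16 (SE 0.26, edgeR adjusted p = 0.849), with p = 0.629 in the exact permutation test. Without Erbb3d/d replicate 3 its sign turned, to -0.04 (SE 0.25).

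Expressed per kilobase of merged exon sequence, the 3 synthesis genes can be set beside each other. Aldh1a2 had 80.1 ± 25.2 CPM per kb in Erbb3f/f, Aldh1a1 7.97 ± 2.25 and Aldh1a3 2.41 ± 2.30 (SD, n = 4). In Erbb3d/d the levels were 89.3 ± 26.2, 14.2 ± 2.69 and 18.9 ± 12.7 CPM per kb (SD, n = 4), so the mean of Aldh1a3 stood above that of Aldh1a1 there and below it in Erbb3f/f. With the length of the longest coding transcript in place of merged exons, Aldh1a3 stayed below Aldh1a1 in both genotypes (25.3 and 29.7 CPM per kb in Erbb3d/d), so that order depends on the length used. Aldh1a3 made up 1.10% to 4.89% of the summed synthesis level per library in Erbb3f/f and 7.36% to 20.3% in Erbb3d/d. Aldh1a2 made up 85.8% to 91.0% and 69.7% to 78.2%. The ranges of both shares did not overlap between the genotypes, also with the other length (1.30% to 5.87% and 8.34% to 23.1% for Aldh1a3), and Aldh1a2 was the largest part in all 8 libraries. The shares are given without a test.

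**Figure D2:**
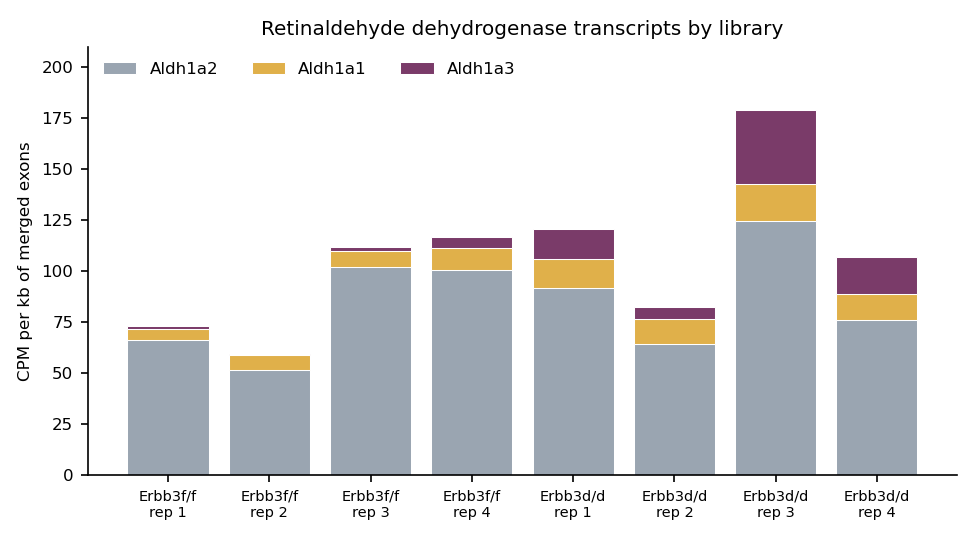
Stacked levels of Aldh1a2, Aldh1a1 and Aldh1a3 in each of the 8 libraries, in CPM per kb of merged exons (linear axis from 0). Aldh1a2 is the largest part of every bar, and the Aldh1a3 part is 7.36% to 20.3% in the Erbb3d/d libraries against 1.10% to 4.89% in the Erbb3f/f libraries.

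Of the breakdown enzymes, Cyp26b1 lies on chromosome 6 (minus strand, bases 84571414 to 84593908). It had 7.89, 7.75, 9.35 and 5.20 CPM in Erbb3f/f replicates 1 to 4 and 9.53, 11.9, 14.8 and 12.5 CPM in Erbb3d/d replicates 1 to 4, from 46 to 188 reads per library. The groups did not overlap, with Erbb3f/f replicate 3 and Erbb3d/d replicate 1 nearly touching. The mean was 7.55 ± 1.72 CPM and 12.2 ± 2.17 CPM (SD, n = 4 each). Its fitted log2 difference was 0.69 (SE 0.22, edgeR adjusted p = 0.314). The exact permutation test again gave p = 0.0286, as it must without overlap. DESeq2 did not call Cyp26b1 (adjusted p = 0.109, against 0.109 to 0.999 over the alternatives).

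Cyp26a1, whose transcription is known to be switched on by retinoic acid itself, lies on chromosome 19 (plus strand, bases 37697798 to 37701536). It had 7.01, 2.41, 5.42 and 7.80 CPM in Erbb3f/f replicates 1 to 4 and 4.91, 5.02, 25.8 and 13.4 CPM in Erbb3d/d replicates 1 to 4. Erbb3d/d replicates 3 and 4 stood above all others, while replicates 1 and 2 lay inside the Erbb3f/f range. The fitted log2 difference was 1.13 (SE 0.57, edgeR adjusted p = 0.481), with p = 0.286 in the exact permutation test. It was 0.47 without Erbb3d/d replicate 3, and -0.18 (SE 0.44) when Erbb3d/d replicates 3 and 4 were both left out, a choice made after the values were seen. In those 2 libraries the mean of the epithelial markers was also the highest of all 8, at 6.85 and 6.97 log2(CPM + 0.5), against 6.27 or less in the others. Its part in the Cyp26a1 values was not tested.

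Retinoic acid receptors bind pairs of a short half-site in the same orientation, and a spacing of 5 bases is the arrangement best known from the Rarb and Cyp26a1 promoters. These promoters are shown because both genes serve as classical readouts of retinoic acid. The half-site searched was AGGTCA, with its variants AGTTCA and also GGGTCA as well as GGTTCA, any 2 of them with 5 bases between, on both strands, in 300-base windows from 250 bases before to 50 bases after each RefSeq gene start (GRCm38.p6). Of 7 of the 9 genes with a window in the table, 2 held such a pair, Cyp26a1 and Rarb. It was found in 0.115% of all 27025 genes with a window, and in 0 of 33 other retinoid pathway genes with one. Since the arrangement is best known from these 2 promoters, finding it in them was given in advance, and the shares are not a test. Pairs spaced by 1 or 2 bases were found in 0 of the 7, against 0.263% and 0.311% of all genes. The 250 bases before each start follow, 5′ to 3′ on the gene's strand, with the pair and its spacer in capitals.
Rarb, chr14:16575477-16575726, minus strand: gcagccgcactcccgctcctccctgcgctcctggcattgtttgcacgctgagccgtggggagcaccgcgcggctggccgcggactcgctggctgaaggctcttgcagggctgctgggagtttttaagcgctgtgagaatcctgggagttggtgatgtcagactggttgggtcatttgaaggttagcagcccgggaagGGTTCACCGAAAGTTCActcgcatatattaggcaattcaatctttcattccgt
Cyp26a1, chr19:37697558-37697807, plus strand: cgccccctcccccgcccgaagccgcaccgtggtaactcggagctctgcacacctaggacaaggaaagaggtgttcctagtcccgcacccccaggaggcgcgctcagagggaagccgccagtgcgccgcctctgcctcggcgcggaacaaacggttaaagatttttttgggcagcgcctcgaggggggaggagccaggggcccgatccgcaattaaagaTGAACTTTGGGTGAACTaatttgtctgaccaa
The Rarb window belongs to an internal start, since it lies within the span of the whole gene given below and far from its 5′ end, where other transcripts begin. In Rarb the pair lies 53 to 37 bases before this internal start and reads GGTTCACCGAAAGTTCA on the gene's strand. In Cyp26a1 it lies 32 to 16 bases before the start and reads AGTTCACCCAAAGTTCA on the opposite strand. A match describes letters only and is not a measured site.

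Crabp2, the binding protein, lies on chromosome 3 (plus strand, bases 87948666 to 87953376) and was the least covered of the 9 genes, with 11 to 63 reads per library. It had 1.56, 1.15, 1.41 and 4.64 CPM in Erbb3f/f replicates 1 to 4 and 1.87, 1.98, 4.96 and 4.74 CPM in Erbb3d/d replicates 1 to 4. One Erbb3f/f library, replicate 4, was as high as the upper pair of Erbb3d/d libraries. Its fitted log2 fold change was 0.66 (SE 0.53, edgeR adjusted p = 0.659), with p = 0.171 in the exact permutation test. It was 1.30 without Erbb3f/f replicate 4, 0.42 without Erbb3d/d replicate 3 and -0.17 (SE 0.65) without both Erbb3d/d replicates 3 and 4.

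The values of all 3 receptor genes overlapped between the labels. Rarg, which encodes RARγ, lies on chromosome 15 (minus strand, bases 102234938 to 102257517). It had 69.9, 75.1, 74.7 and 85.1 CPM in Erbb3f/f replicates 1 to 4 and 87.3, 66.6, 88.7 and 74.2 CPM in Erbb3d/d replicates 1 to 4. It was the steadiest of the 9 genes within Erbb3f/f, with 1.22-fold between its lowest and highest library. Its log2 fold change was 0.06 (SE 0.11, edgeR adjusted p = 0.878).

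Rara, which encodes RARα, lies on chromosome 11 (plus strand, bases 98927818 to 98974942). It had 51.8, 59.5, 75.3 and 83.4 CPM in Erbb3f/f replicates 1 to 4 and 60.6, 79.9, 77.7 and 69.8 CPM in Erbb3d/d replicates 1 to 4, so every Erbb3d/d value lay inside the Erbb3f/f range. Its log2 fold change was 0.09 (SE 0.15, edgeR adjusted p = 0.846).

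Rarb, which encodes RARβ, is known to be induced by retinoic acid, and has the internal promoter sequence printed above, lies on chromosome 14 (minus strand, bases 16430839 to 16819156). It had 8.86, 7.33, 15.4 and 11.5 CPM in Erbb3f/f replicates 1 to 4 and 14.1, 9.10, 9.93 and 6.23 CPM in Erbb3d/d replicates 1 to 4. The groups overlapped, and it was the 1 gene of the 9 with a lower mean in Erbb3d/d, at a log2 fold change of -0.14 (SE 0.29, edgeR adjusted p = 0.885). This sign turned without Erbb3f/f replicate 3 (0.09), without Erbb3d/d replicate 4 (0.04) and without both Erbb3d/d replicates 3 and 4 (0.11). In GENCODE vM21 its exons overlap exons of Top2b and Gm48162, and the libraries were not strand-specific, so reads in the shared sequence cannot be assigned to one gene. Top2b, a DNA topoisomerase gene, had 111 to 129 CPM in Erbb3f/f and 96.1 to 118 CPM in Erbb3d/d, and these overlapped. Exact permutation tests gave p = 0.743 for Rarg, 0.571 for Rara and 0.714 for Rarb.

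Per kilobase, Rarg and Rara were the most abundant of the 9 genes after Aldh1a2 in Erbb3f/f, at 17.9 ± 1.50 and 15.5 ± 3.31 CPM per kb (SD, n = 4), and their ranges overlapped. Aldh1a1 followed without overlap, and below it Cyp26a1, Aldh1a3, Rarb, Crabp2 and Cyp26b1, from 2.85 ± 1.20 down to 1.41 ± 0.322 CPM per kb (SD, n = 4), each overlapped its neighbour in this order. With the longest coding transcript as the length, the first 4 places were the same and Cyp26a1 and Rarb exchanged places. Of the summed receptor level, Rarg made up 46.5% to 54.8% per library in Erbb3f/f and 43.8% to 55.3% in Erbb3d/d, Rara 39.6% to 46.3% and 37.5% to 51.3%, and Rarb 4.27% to 7.76% and 3.42% to 7.21%. The mix of receptors thus overlapped between the genotypes for all 3 genes.

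Means are given for Erbb3f/f first and Erbb3d/d second. The rest of the pathway was read out from 4 lists of 54 genes, of which 39 had enough reads to be tested. By edgeR 0 of the 39 had an adjusted p under 0.05, 4 had an unadjusted p under 0.05, and 22 had a log2 fold change above 0, with a median of 0.03. None of the 54 had values that did not overlap between the genotypes. Of 16 tested genes for retinol uptake, storage and oxidation, 9 were higher in Erbb3d/d and 7 lower. The one with the most reads, Stra6, a retinol uptake receptor, had means of 219.7 ± 46.9 and 219 ± 43.3 CPM (SD, n = 4 each), a difference of -0.01 (SE 0.18) on the log2 scale. Dhrs3, which turns retinaldehyde back to retinol, is given after its values were seen and had 65.3 ± 12.2 and 81.8 ± 14.9 CPM (SD, n = 4 each), edgeR adjusted p = 0.474. The binding protein Fabp5 had 13.5 ± 4.89 and 17.2 ± 3.64 CPM (SD, n = 4 each).

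Of 9 tested partner receptors and cofactors, 4 were higher in Erbb3d/d and 5 lower, with a median log2 fold change of -0.15. The RXR partner gene Rxra, given after its values were seen, had 164 ± 11.6 and 167 ± 2.46 CPM (SD, n = 4 each).

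Of 12 tested genes known to respond to retinoic acid in other settings, 8 were higher and 4 lower, with a median log2 fold change of 0.23. At an unadjusted p under 0.05 there were 3 of the 12, all higher in Erbb3d/d, against 6.64% of all genes tested in that direction. In edgeR 0 of the 12 had an adjusted p under 0.05. The 3 were Bhlhe40, Meis1 and Meis2, named after their values were seen. Tgm2, a transglutaminase gene and the one with the most reads, had means of 927 ± 114 and 764 ± 96.5 CPM (SD, n = 4 each), a log2 difference of -0.28 (SE 0.13, edgeR adjusted p = 0.435). Bhlhe40, a transcriptional repressor once isolated as a retinoic acid response gene, had the smallest p of the 39. Its means were 153 ± 33.2 and 238 ± 40.8 CPM (SD, n = 4 each), a log2 difference of 0.64 (SE 0.17, edgeR adjusted p = 0.279). All but 1 of the 4 Erbb3d/d libraries lay above every Erbb3f/f library. DESeq2 called it (adjusted p = 0.0369, against 0.0369 to 0.999 over the 16 alternatives), as did edgeR without Erbb3d/d replicate 2 (adjusted p = 0.0401). Meis1, a homeobox gene, had means of 59.7 ± 4.47 and 93.7 ± 30.2 CPM (SD, n = 4 each), a log2 difference of 0.65 (SE 0.22, edgeR adjusted p = 0.323). It was called without Erbb3d/d replicate 2 (edgeR adjusted p = 0.0134, against 0.0134 to 0.999 over the alternatives). That fit, which called 1.75% of all genes, left out a library with 52.5 CPM of Meis1. This value was below every Erbb3f/f library (55.2 to 63.7 CPM). Meis2, a relative of Meis1, had 77.8 ± 8.44 and 108 ± 30.5 CPM (SD, n = 4 each). Its log2 difference was 0.47 (SE 0.18, edgeR adjusted p = 0.356).

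**Figure D3:**
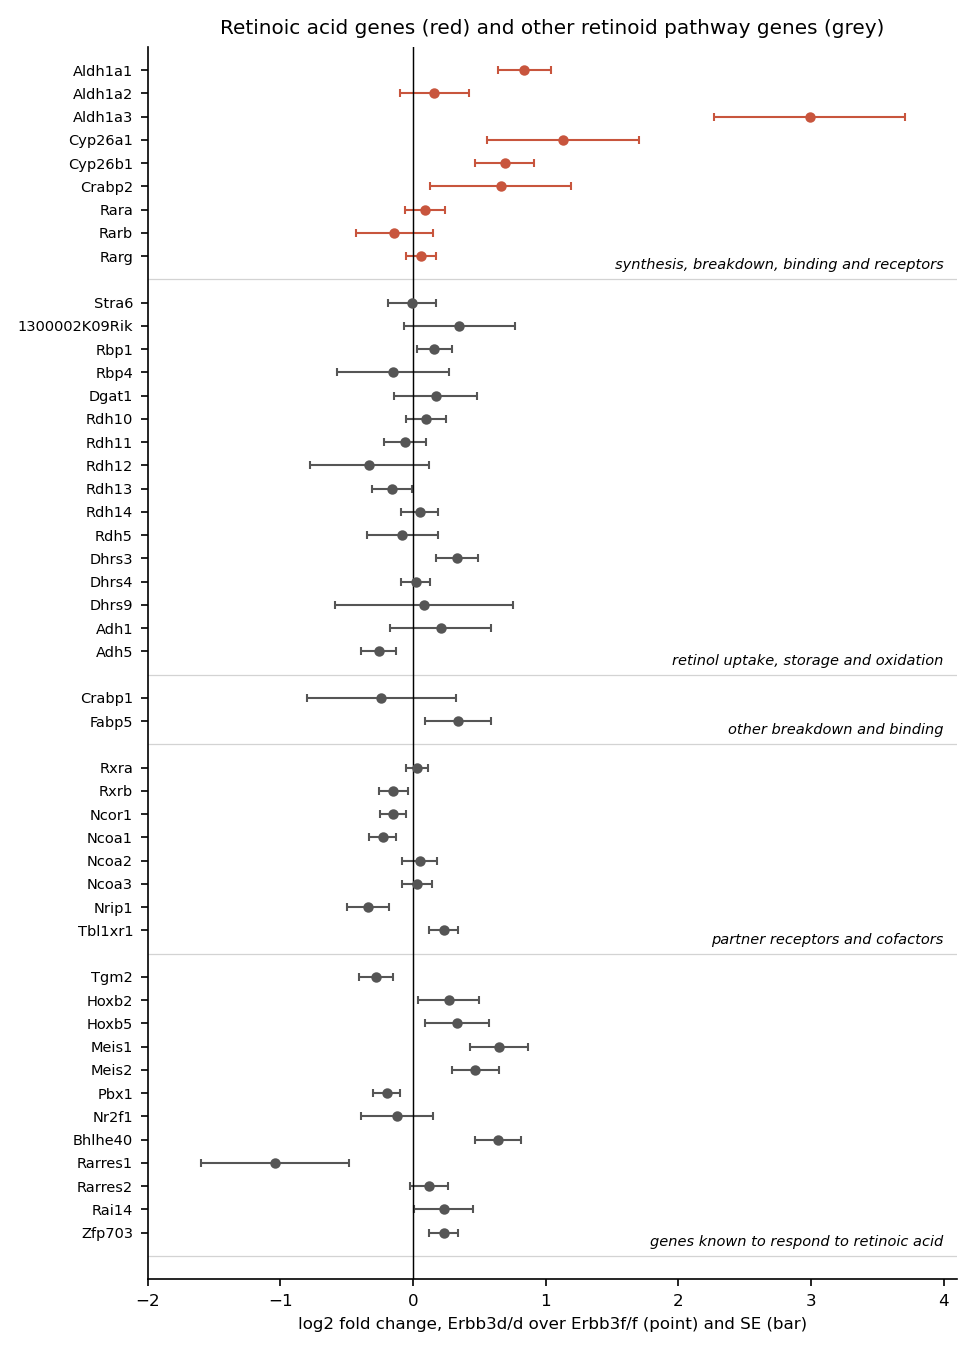
Log2 fold change of Erbb3d/d over Erbb3f/f (point) with its SE (bar) from edgeR, for the 9 retinoic acid genes and the tested genes of the other pathway lists, all but 1 of which are drawn. Aldh1a3 stands farthest from 0 at 2.99, while the other lists lie on both sides of 0.

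Epithelial and smooth muscle markers had higher levels under the Erbb3d/d label, as Aldh1a1, Aldh1a3 and Cyp26b1 had. Of 15 epithelial markers, 13 had a higher mean in Erbb3d/d, and of 9 smooth muscle markers all 9, with median log2 fold changes of 0.76 and 1.06, and no marker was at 0 in every library. The epithelial mean was 6.03, 5.86, 5.57 and 6.27 log2(CPM + 0.5) in the Erbb3f/f libraries, by replicate, and 6.23, 6.08, 6.85 and 6.97 in the Erbb3d/d libraries. Erbb3f/f replicates 1 and 4 and Erbb3d/d replicates 1 and 2 lay close together in epithelial markers, at 6.03 to 6.27. These libraries, picked after the values were seen, had 4.97, 26.5, 68.6 and 28.0 CPM of Aldh1a3. Their smooth muscle means differed, at 7.20, 6.55, 8.41 and 7.29 log2(CPM + 0.5). The smooth muscle mean ran from 6.17 to 7.20 in Erbb3f/f and from 7.17 to 8.41 in Erbb3d/d, and was highest in Erbb3d/d replicate 1. Of the 13 stromal markers, 4 had a higher mean in Erbb3d/d, with a median log2 fold change of -0.28. The values of 2 of them, the receptor gene Pdgfra and the intermediate filament gene Vim, were lower in Erbb3d/d without overlap. Higher without overlap were 3 of the epithelial and 2 of the smooth muscle markers. Over all genes tested, 5.04% did not overlap in either direction and 2.56% were higher without overlap. Pdgfra had means of 916 ± 78.4 CPM under the Erbb3f/f label and 622 ± 95.4 CPM under the other (SD, n = 4 each; edgeR adjusted p = 0.206, and 0.00484 to 0.903 over the 16 alternatives, the lowest by DESeq2). For Vim they were 622 ± 80.8 and 448 ± 56.3 CPM (SD, n = 4 each; edgeR adjusted p = 0.279, and 0.0470 to 0.951 over the alternatives, the lowest by DESeq2). The part of stromal, epithelial or smooth muscle RNA in the differences of the 3 genes was not tested.

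Mesothelium, the outer lining of the uterus, is another tissue that can come along with the organ. Of its 7 markers 0 had a higher mean in Erbb3d/d, and their summed level was 316 to 525 CPM in Erbb3f/f and 292 to 458 CPM in Erbb3d/d. It was highest in replicate 3 of each genotype, the libraries in which Aldh1a2 was also the highest of its genotype, and its part in the Aldh1a2 values was not tested. Endothelial markers summed to 223 to 465 and 218 to 476 CPM, with 7 of 8 higher in Erbb3d/d, and immune markers to 473 to 915 and 614 to 776 CPM, with 5 of 9 higher. The endothelial marker that was lower, Cdh5, was the largest part of its sum, with overlapping values and means of 196 ± 62.2 and 151 ± 83.4 CPM (SD, n = 4 each).

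**Figure D4:**
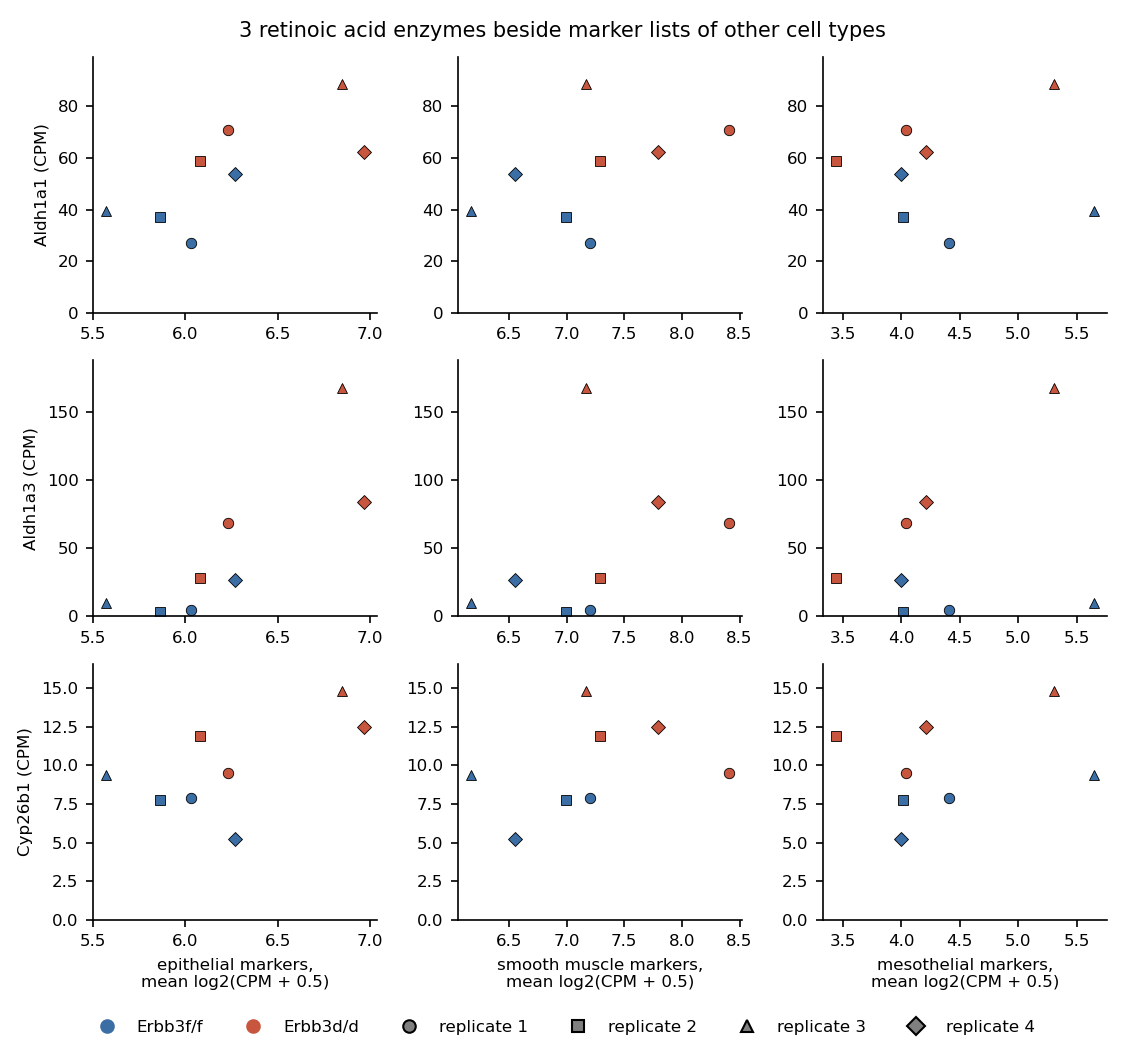
CPM of Aldh1a1, Aldh1a3 and Cyp26b1 (rows, linear axes from 0) against the mean log2(CPM + 0.5) of epithelial, smooth muscle and mesothelial markers (columns) in the 8 libraries, blue for Erbb3f/f and red for Erbb3d/d, with symbols for replicates. Erbb3d/d replicates 3 and 4 have the highest epithelial means, 6.85 and 6.97, and Erbb3d/d replicate 3 the highest value of all 3 genes.

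Single libraries changed the size of the differences of Aldh1a1, Aldh1a3 and Cyp26b1, whose direction cannot turn when a library is left out, since their groups do not overlap. Leaving out each library in turn gave log2 fold changes of 0.70 to 1.02, 2.45 to 3.83 and 0.55 to 0.81, and 0 of the 9 genes was called in any of the 8 fits, also without Erbb3d/d replicate 2, where 1.75% of all genes were. Without both Erbb3d/d replicates 3 and 4 the values were 0.73, 2.14 and 0.50. Erbb3d/d replicate 3 was the highest of its genotype for 7 of the 9 genes, all but Rara and Rarb, and Erbb3f/f replicate 4 for 6 of the 9.

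**Figure D5:**
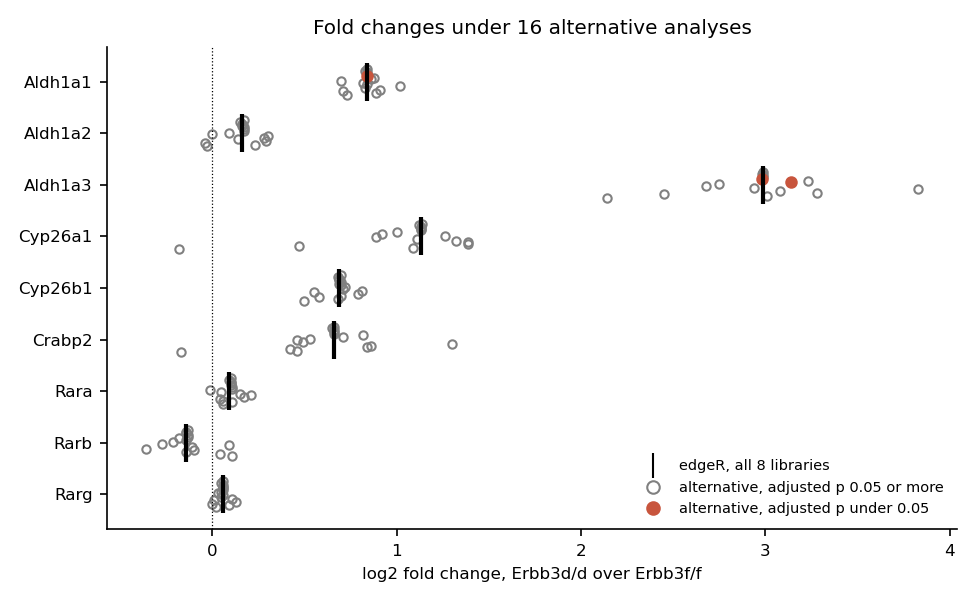
Log2 fold change of each of the 9 genes with all 8 libraries in edgeR (black bar) and under 16 alternative analyses (circles, filled where the adjusted p was under 0.05). Aldh1a1, Aldh1a3 and Cyp26b1 stay above 0 in all 16, and Cyp26a1, Crabp2, Aldh1a2, Rara and Rarb cross 0 in at least 1.

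Genes whose profile over the 8 libraries was nearest to that of a synthesis gene, a breakdown or binding gene and a receptor gene were sought among 14517 other tested genes with a mean of at least 1 CPM, by the root mean square distance of the centred log2(CPM + 0.5) values. Within each role the gene with the smallest p was used. Nearest to Aldh1a1 were Plcd4, Hap1 and Arl4c, at distances of 0.06, 0.16 and 0.18, where Aldh1a1 itself spread by 0.52 about its mean. Plcd4 had 1.56, 1.99, 2.20 and 3.05 CPM in Erbb3f/f replicates 1 to 4 and 4.72, 3.50, 5.44 and 3.77 CPM in Erbb3d/d replicates 1 to 4. Nearest to Cyp26b1 were Lyrm1, Enpp5 and Ankrd28 (0.15, 0.17 and 0.20, against its own spread of 0.42), and nearest to Rara were Setbp1, Il1rl2 and Pura (0.06, 0.07 and 0.07, against 0.23). These are descriptions over 8 libraries, picked from many genes. Plcd4 had 16 to 69 reads per library and Lyrm1 19 to 58, so their distances also carry counting noise.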

How the data were processed

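The authors deposited 1 table of raw counts per gene symbol for each of 8 libraries, with no normalization. Per the labels' protocols, the libraries were poly(A)-selected, non-directional and read as pairs of 150 bp. The submitters' processing notes name HISAT2, SAMtools, HTSeq and StringTie and the build mm10/GRCm38, without roles or versions. The annotation and counting options are not given in the sources used here. Lines that name no gene were left out of library sizes and tests; reads outside annotated genes were 48.3% to 50.8% of all entries, and reads in genes 27.0% to 29.1%.

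Samples were grouped by their titles. The main test was that of edgeR 4.0.16 under R 4.3.3 (filterByExpr, TMM, quasi-likelihood test with robust fit, genotype as the only term), which tested 14598 genes, with Benjamini-Hochberg adjustment at 0.05. The SE is the log2 fold change divided by the root of the F statistic. Alternatives used DESeq2 1.42.0, limma 3.58.1 (voom), other scalings and filters, the replicate number as a block, and each library left out. Two-sided exact permutation tests, 9 in number, used log2(CPM + 0.5). The fits were tested on simulated data. Replicates of a genotype were compared pairwise, and no pair agreed within sampling noise. Positions and lengths came from GENCODE vM21, and promoters from RefSeq. For Aldh1a3 and Crabp2 no promoter was used here.

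The 9 genes and all lists were chosen with earlier results of these data known, from general knowledge of the pathway. In the other lists the rule named every gene with an adjusted p under 0.05, otherwise genes of at least 1 CPM without overlap, and the gene with the most reads in each list; 1 such gene is counted in its list but not reported here. Low counts limit Crabp2 most.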

Additional observations from a re-analysis of the deposited data

Results flagged for a closer look

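In Erbb3f/f replicate 4, Crabp2 had 4.64 CPM, far above its 3 companions, the closest being at 1.56 CPM. The value rests on 41 reads, against 11 to 18 in the other 3. Of 18 groups of 4 libraries examined, 1 held such a distant value, and chance gives about 1 in 20.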

How the results depend on the processing

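With all 8 libraries, edgeR called 0 of 14598 genes and 0 of the 9 retinoic acid genes, with 1695 and 3 at an unadjusted p under 0.05. limma-voom also called 0 and 0. DESeq2 called 262 genes and 2 of the 9, Aldh1a1 (log2 fold change 0.84) and Aldh1a3 (2.98). Adding the replicate block to edgeR called 52 genes and 1 of the 9, Aldh1a3 (3.14, adjusted p = 0.0457), and among the other pathway genes Bhlhe40 (adjusted p = 0.0406). Same-numbered libraries shared weak, positive deviations (r = 0.221, 0.159, 0.096 and 0.145 over genes). Erbb3f/f replicates 1, 2 and 3 each correlated best with the Erbb3d/d library of their own number. Erbb3f/f replicate 4 correlated best with Erbb3d/d replicate 3 (r = 0.302). These values cannot tell whether samples of the same number belong together, and the labels give only the number. Leaving out each library gave 0 to 259 calls over all genes, the 259 without Erbb3d/d replicate 2 and 0 without any other, and 0 of the 9 each time. Over these 8 fits the log2 fold change ran from 0.70 to 1.02 for Aldh1a1, -0.04 to 0.30 for Aldh1a2, 2.45 to 3.83 for Aldh1a3, 0.47 to 1.39 for Cyp26a1, 0.55 to 0.81 for Cyp26b1, 0.42 to 1.30 for Crabp2, -0.01 to 0.21 for Rara, -0.36 to 0.09 for Rarb and 0.00 to 0.13 for Rarg. The sign turned for Aldh1a2 without Erbb3d/d replicate 3 (-0.04), for Rara without Erbb3f/f replicate 1 (-0.01), and for Rarb without Erbb3f/f replicate 3 (0.09) or Erbb3d/d replicate 4 (0.04). Leaving out both Erbb3d/d replicates 3 and 4, chosen after seeing the data, turned Aldh1a2 (-0.03), Cyp26a1 (-0.18), Crabp2 (-0.17) and Rarb (0.11). Fewer samples enter these fits; otherwise the cause was not tested. The other scalings, filters and pseudocount turned no sign and no call of the 9 genes. Of 194 recomputed values, 178 stayed the same. For fold changes and permutation tests this means the same direction and side of the threshold, and for counts of calls an unchanged count. Since edgeR called 0 of the 9 with all 8 libraries, each fold change that stayed the same was also uncalled. Depth limits Crabp2 most, at 11 to 63 reads per library.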

Other observations

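Some retinoid genes had too few reads for the test over all genes and are given as read counts, chosen after their values were seen. Cyp26c1, the remaining enzyme of retinoic acid breakdown, had 0, 2, 1 and 0 reads under the Erbb3f/f label (replicates 1 to 4) and 2, 1, 10 and 8 under Erbb3d/d. Its higher counts fell in Erbb3d/d replicates 3 and 4, the libraries in which Cyp26a1 was highest. Adh7, an alcohol dehydrogenase that oxidises retinol, had 5, 7, 20 and 23 reads in Erbb3f/f and 6, 7, 5 and 3 reads in Erbb3d/d. Lrat, which stores retinol as esters, had 5, 1, 0 and 2 reads in Erbb3f/f and 17, 1, 5 and 7 reads in Erbb3d/d.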
